A study of Mus musculus with 2 samples.

Results

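Cycling cortical radial glia are radial glial cells (RGCs) caught while they held RNA of the DNA synthesis and division machinery. They were chosen from single-cell counts of unique molecular identifiers (UMIs), each of which marks a captured RNA molecule. A barcode was kept at 1500 to 60000 UMIs with under 10% of them from mitochondrial genes. A cycling RGC then had *Pax6* and at least 3 of the 7 genes *Pax6*, *Hes5*, *Sox2*, *Slc1a3*, *Mfge8*, *Ttyh1* and *Aldoc* at 1 UMI or more. It also had no UMI of *Eomes*, *Gad1*, *Gad2*, *Dlx1*, *Dlx2* or *Olig1*, and at least 2 UMIs summed over *Mki67*, *Top2a* and *Cenpf*. In all, 225 of 16213 gated cells met these conditions. They were 102 of 5966 cells in replicate 1, which is 1.71% with a Wilson 95% interval of 1.41 to 2.07%, and 123 of 10247 cells in replicate 2, which is 1.20% with an interval of 1.01 to 1.43%. These intervals cover counting error only.

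The cells came from dissected cerebral cortex of E16.5 mice (embryonic day 16.5), taken as wild-type (WT) controls from the EomesDot line, an *Eomes-Cre* line. Both libraries belong to this WT group, so there is no treated or mutant group, and the labels do not say whether a library holds 1 embryo or several, nor whether the controls carry the Cre allele. Tissue was dissociated with papain and captured on a 10x Genomics 3′ v3.1 droplet kit. The study used such libraries to examine signals from SST+ cortical interneurons (cINs) to RGCs and to intermediate progenitor cells (IPCs), and the signal genes it centres on are followed below in the cycling RGCs.

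RGCs line the ventricle of the embryonic cortex and are its stem cells. They divide at the ventricular surface, copy their DNA with the nucleus farther from it, and give rise to neurons either directly or through IPCs, which turn on *Eomes*. Their identity rests on transcription factors such as *Pax6*, *Sox2*, *Lhx2* and *Emx2* and on Notch signalling through *Hes1* and *Hes5*. Towards the end of neurogenesis they take up astroglial genes. In S phase a cell raises the genes that make and copy DNA, and in G2 and M phase those of chromosome condensation, spindle and cytokinesis.

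The genes of the rule are described without a test, because they chose the cells. *Pax6* (chr2:105668896-105698410, RefSeq positions on GRCm38.p6, which is mm10) stood at 325 and 356 counts scaled to the same total of UMIs in every group (CPM) in the summed cycling RGCs of replicates 1 and 2, against 32.5 and 31.8 CPM in the gated cells outside the RGC, IPC and GABAergic groups used below, called other gated cells. *Sox2* (chr3:34649995-34652461) stood at 320 and 267 CPM. The Notch target *Hes5* (chr4:154960626-154962372) stood at 95.6 and 94.6 CPM and was seen in 46.1 and 39.8% of the cycling RGCs. In cells thinned to 1500 UMIs each, *Hes5* was seen in 13.7 and 13.0% of cycling RGCs and in 1.6 and 2.0% of other gated cells. *Mki67* (chr7:135689784-135716450) was present in 81.4 and 74.8% of the cells and *Top2a* (chr11:98992947-99024199) in 82.4 and 82.1%. Both were seen in at most 8.0% of other gated cells before thinning. Since these genes set the rule, their levels do not bear on the label.

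The label was checked on genes of the RGC list, which the rule did not use. The 22 genes of that list summed to 23999 and 24357 CPM in cycling RGCs, to 28546 and 27902 CPM in RGCs with the same gate and no cycle UMI, and to 4785 and 5040 CPM in other gated cells. *Fabp7*, a lipid carrier of RGCs, was at 9784 and 10657 CPM in cycling RGCs and at 815 and 995 CPM in other gated cells. The intermediate filament gene *Vim* was at 1697 and 1300 CPM, against 194 and 183 CPM in other gated cells.

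Several cells lay close to the limits of the rule. Without the condition on *Eomes*, *Gad1*, *Gad2*, *Dlx1*, *Dlx2* and *Olig1*, 207 and 282 cells would have been chosen. Of these, 28 and 34 were lost for *Eomes* alone, 54 and 75 for the GABAergic genes alone, 6 and 13 for *Olig1* alone, and 17 and 37 for more than 1 of them. Just inside the limits were 9 and 16 cells with exactly 2 cycle UMIs, whose G2M genes without the genes of the rule summed to 4756 and 6840 CPM. Just outside, RGCs with exactly 1 cycle UMI had 2902 and 3900 CPM, and RGCs with none had 2257 and 2406 CPM. Cells with 3 or more cycle UMIs had 15438 and 15748 CPM. The S phase list stood at 5810 and 2283 CPM in cells with exactly 2 cycle UMIs, at 3743 and 3392 CPM in cells with 3 or more and at 1718 and 1452 CPM in RGCs with none. Cells with 2 of the 7 RGC genes numbered 4 and 13, and cells without *Pax6* that met the other conditions numbered 18 and 47.

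Cycling RGCs were deep cells. Their median was 10419 and 7084 UMIs, against 8621 and 4828 in non-cycling RGCs and 5554 and 4865 in other gated cells, and they held 1129755 and 1046126 UMIs in all. The 2 libraries shared 40 barcodes, none of which was a cycling RGC in either. Doublet scoring marked 7 and 15 cycling RGCs, which is 6.86 and 12.2%, and these were kept. Markers of other cells were low. The neuron list summed to 1895 and 2756 CPM, against 12303 and 11822 CPM in other gated cells. The ventral progenitor list summed to 93.8 and 81.3 CPM with *Gsx1* and *Lhx8* at 0. Oligodendrocyte precursor genes summed to 13.3 and 19.1 CPM with *Sox10* at 0, and microglial genes to 13.3 and 25.8 CPM. Replicate 2 held more endothelial RNA, with 71.7 CPM over 6 genes against 5.31 CPM in replicate 1, and more meningeal RNA, with 70.7 against 13.3 CPM. Globin and other erythroid genes summed to 409 and 762 CPM, against 11252 and 13953 CPM in other gated cells.

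Against all other gated cells the comparison is a description, since the rule separates the groups. Among 3356 genes at 50 CPM or more in the cycling RGCs of both libraries, and outside the rule, those below had among the largest folds, ordered by the lower of the 2 libraries. *Hopx*, a homeodomain protein known from late and outer RGCs, was at 78.8 and 83.2 CPM and stood 12.5-fold and 16.9-fold above all other gated cells. The Hedgehog co-receptor *Gas1* was at 316 and 288 CPM, 12.1-fold and 11.8-fold higher. *Tnc*, a matrix protein of the RGC niche, was at 755 and 736 CPM, 14.2-fold and 11-fold higher. *Ccdc80*, *Etl4*, *Col12a1* and the metallothionein gene *Mt2* stood at least 10.4-fold higher in both libraries. *Rgcc*, named as a regulator of the cell cycle, was 11.2-fold and 10.3-fold higher, and the spindle midzone protein *Prc1* was at 485 and 581 CPM, 9.95-fold and 10.4-fold higher. The heat map of levels shows *Hopx*, *Tnc* and genes of other roles in the groups compared next.

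**Figure D1:**
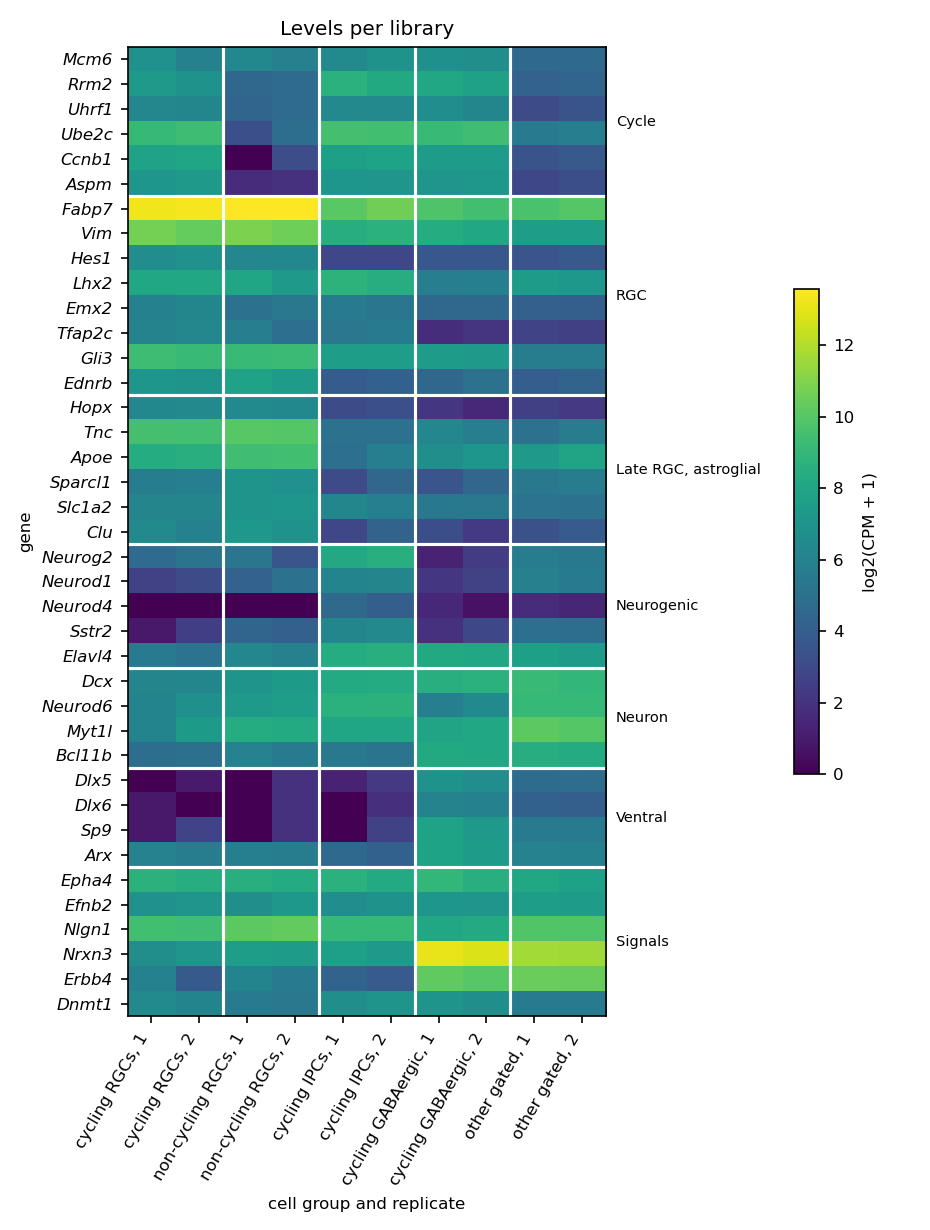
Levels of 39 genes, grouped by role, as log2(CPM + 1) of the UMIs summed over the cells of each group, with replicates 1 and 2 side by side. *Ube2c*, *Ccnb1* and *Aspm* are brighter in every cycling group than in non-cycling RGCs, whereas *Fabp7*, *Tnc* and *Hopx* are brighter in both RGC groups than in the others, and *Nrxn3* is brightest in cycling GABAergic cells at 8873 and 7336 CPM.

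The first comparison sets cycling RGCs against 171 non-cycling RGCs, 53 and 118 per library, which passed the same RGC gate with 0 UMIs of *Mki67*, *Top2a* and *Cenpf*. It asks what else differs between RGCs with and without division RNA. Of 18198 genes tested with edgeR's quasi-likelihood test, 1420 were called at an adjusted p under 0.05, which is 7.80% of all genes. Of these, 870 were higher in cycling RGCs (4.78%) and 550 were lower (3.02%). With 84 calls in the cycle lists, 786 higher and 550 lower calls lay outside them. Since the cells of both groups come from the same 2 libraries and were split by their own RNA, a p-value here measures only how well 2 libraries repeat a difference.

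Cycle genes were higher in cycling RGCs, as the rule selects for. All 51 tested genes of the G2M list were called higher, with a median log2 difference of 4.53, and 33 of the 43 S phase genes, with a median of 1.29, beside a median of 0.00 over all genes. These counts are a description, because the genes vary with those of the rule. The cytokinesis kinase *Aurkb* was at 121 and 116 CPM and had 0 UMIs in non-cycling RGCs, so it was at least 46.2-fold higher, with the floor set at 3 UMIs over the group. *Pimreg* was at 110 and 156 CPM against 0, at least 51.4-fold higher. *Hmgb2*, a chromatin protein of dividing cells, was at 4531 and 4314 CPM against 609 and 663 CPM. In S phase, *Rrm2*, which makes deoxynucleotides, was at 157 and 124 CPM against 22.5 and 26.2 CPM. The replication clamp *Pcna* was at 280 and 238 CPM against 117 and 97.8 CPM. Non-cycling RGCs were thus not free of S phase RNA. After thinning, the S phase list gave 5.61 and 4.93 UMIs per cell in cycling RGCs and 2.89 and 2.30 in non-cycling RGCs, and the G2M list 21.4 and 22.9 against 3.51 and 3.67.

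**Figure D2:**
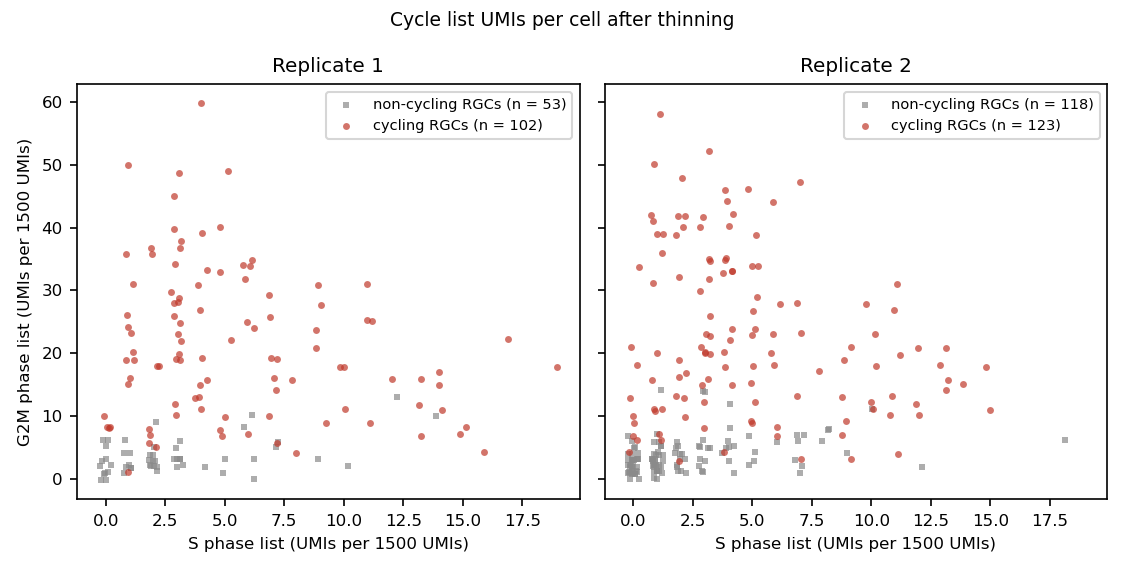
UMIs of the S phase list (x axis) and of the G2M list (y axis) per cell after each cell was thinned to 1500 UMIs, for 102 and 123 cycling RGCs and 53 and 118 non-cycling RGCs of replicates 1 and 2, with points shifted slightly at random so that they do not hide each other. Cycling RGCs spread from cells high on the G2M axis to cells high on the S axis, and some non-cycling RGCs lie high on the S axis alone.

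Since these genes differed together, promoters of 4 of them are shown. They are the 250 bases before the start that the RefSeq promoter table lists for build GRCm38.p6, 5′ to 3′ on the strand of the gene. They were taken as the genes with the highest level among called list genes that have a single listed promoter with the searched letters. Capitals mark, on either strand, TTTGAA, the core of the cell cycle homology region read by the DREAM and MMB-FOXM1 complexes, and CCAAT, read by NF-Y, in the G2M genes *Hmgb2* (chr8:57511593-57511842, plus strand) and *Ube2c* (chr2:164769679-164769928, plus strand). In the S phase genes *Hells* (chr19:38930740-38930989, plus strand) and *Pola1* (chrX:93632156-93632405, minus strand) they mark TTTCCCGC or TTTGGCGC, letters that E2F factors read.
Hmgb2: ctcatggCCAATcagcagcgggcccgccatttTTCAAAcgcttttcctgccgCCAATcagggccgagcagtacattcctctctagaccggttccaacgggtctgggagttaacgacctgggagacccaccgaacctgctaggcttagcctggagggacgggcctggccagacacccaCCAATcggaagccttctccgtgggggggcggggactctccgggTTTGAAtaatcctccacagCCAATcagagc
Ube2c: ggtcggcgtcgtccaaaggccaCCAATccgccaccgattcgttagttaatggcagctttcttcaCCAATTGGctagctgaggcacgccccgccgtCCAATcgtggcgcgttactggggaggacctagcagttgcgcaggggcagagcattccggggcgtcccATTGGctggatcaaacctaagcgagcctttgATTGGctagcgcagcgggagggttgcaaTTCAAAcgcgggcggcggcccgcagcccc
Hells: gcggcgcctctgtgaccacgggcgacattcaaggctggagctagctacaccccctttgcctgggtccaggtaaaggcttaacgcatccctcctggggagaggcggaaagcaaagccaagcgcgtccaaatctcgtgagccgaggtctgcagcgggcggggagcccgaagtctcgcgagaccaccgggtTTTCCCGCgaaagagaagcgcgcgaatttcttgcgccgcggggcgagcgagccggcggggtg
Pola1: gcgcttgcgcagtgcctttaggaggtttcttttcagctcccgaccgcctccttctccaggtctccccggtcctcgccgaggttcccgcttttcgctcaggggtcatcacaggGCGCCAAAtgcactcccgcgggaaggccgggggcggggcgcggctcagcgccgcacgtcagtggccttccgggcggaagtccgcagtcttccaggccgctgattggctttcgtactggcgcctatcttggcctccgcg
In *Hmgb2* and *Ube2c* the TTTGAA letters nearest to the start lie 30 and 29 bases before it, with 4 and 6 CCAAT letters in the window, 2 of which overlap each other on opposite strands in *Ube2c*. The E2F letters lie 62 bases before the start in *Hells* and 138 in *Pola1*. Among genes with a listed promoter, TTTGAA was in 20 of 47 G2M genes (42.6%), in 6 of 31 S phase genes (19.4%) and in 1 of 17 RGC genes (5.9%), against 16% of all 32851 promoters. CCAAT was in 36 G2M genes (76.6%), 22 S phase genes (71.0%) and 10 RGC genes (58.8%), against 33.8% of all. E2F letters were in 8 S phase genes (25.8%), 2 G2M genes (4.3%) and 0 RGC genes, against 1.3% of all. A list gene counted if any of its listed promoters held the letters. The shares of all are over single promoters, so the units differ. In *Hells* and *Pola1* the RefSeq gene span (chr19:38930262-38970470 and chrX:93304766-93632387) begins farther upstream, so that all of the *Hells* window and most of the *Pola1* window lie inside it. A match describes letters and is not a measured binding site.

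Outside the cycle lists, the naming rule gave these genes with the largest excess. Genes that vary with those of the rule were bound to differ, so these too are a description. The MYC-network protein *Mxd3* was at 54.9 and 62.1 CPM and had 0 UMIs in non-cycling RGCs, at least 22.8-fold higher. *Esco2*, which acetylates cohesin in S phase, was at 142 and 112 CPM against 1 UMI in all non-cycling RGCs, a ratio of 149 with a counting interval of 26.5 to 5901. The DNA glycosylase *Neil3* had a ratio of 75.5 (20.7 to 627) over 2 UMIs. *Sapcd2*, which orients the spindle, *Sgo2a*, which guards centromeric cohesin, *Depdc1a* and *Incenp*, of the chromosomal passenger complex, had ratios between 52.8 and 71.5 over 1 to 3 UMIs. The mitotic cyclin *Ccnb1* was at 224 and 247 CPM against 0 and 8.27 CPM (log2 difference 5.61, SE 0.31, edgeR adjusted p = 1.7e-71). *Ccna2* was at 191 and 195 CPM against 0 and 6.89 CPM (5.57, SE 0.33, adjusted p = 2.5e-59).

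Cyclins, kinases and their inhibitors were higher in part. Here too, genes that vary with those of the rule were bound to differ, so the counts of this paragraph are a description. Of 24 genes of this group, 12 were called higher and none lower, with a median of 1.01, beside 4.78% higher over all genes. The CDK inhibitor *Cdkn2d* was at 99.1 and 115 CPM against 15.8 and 17.9 CPM (2.71, SE 0.28, edgeR adjusted p = 4.3e-20), and *Cdkn2c* at 85.9 and 74.6 against 29.3 and 12.4 CPM (2.14, SE 0.30). Inhibitors of the cycle were thus among the higher genes. The D cyclins *Ccnd1* (0.99, SE 0.26) and *Ccnd2* (0.68, SE 0.11), which carry cells through G1, differed by less. *Ccnd2* was at 721 and 525 CPM in cycling and 437 and 382 CPM in non-cycling RGCs. Of 21 tested genes of centrosome and spindle, 13 were called higher and none lower, with a median of 1.79, beside the same 4.78%. They are known from inherited microcephaly or act beside genes that are. *Aspm*, the most frequently mutated of these genes, was at 141 and 153 CPM against 3 UMIs in all, a ratio of 57.1 (19.4 to 279). *Knl1*, a kinetochore scaffold, was at 198 and 197 CPM against 9.02 and 4.13 CPM (5.11, SE 0.31). *Kif14* and *Wdr62* had 1 UMI each in non-cycling RGCs, for ratios of 52.7 (9.23 to 2101) and 13.4 (2.20 to 552).

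Of 22 RGC identity genes, 4 were called higher and 2 lower, beside 7.80% called over all genes, 10 had an unadjusted p under 0.05, and the median was 0.12. The higher ones were dorsal transcription factors. *Dmrta2* was at 65.5 and 48.8 CPM against 24.8 and 33.1 CPM (1.0, SE 0.30, edgeR adjusted p = 0.016), *Emx2* at 60.2 and 72.6 against 33.8 and 42.7 CPM (0.83, SE 0.26, adjusted p = 0.025) and *Tfap2c* at 65.5 and 76.5 against 54.1 and 30.3 CPM (0.89, SE 0.29, adjusted p = 0.036). *Lhx2*, a selector of cortical fate, was at 281 and 270 against 252 and 158 CPM (0.54, SE 0.14, adjusted p = 0.0022). *Ednrb* and *Zbtb20* were called lower, by -0.48 and -0.28. These calls depend on the settings, since the list gave 0 higher and 3 lower genes with DESeq2 and 1 higher and 5 lower with a mitochondrial limit of 5%. *Fabp7*, at 11966 and 12053 CPM in non-cycling RGCs, was not called (-0.17, SE 0.09, adjusted p = 0.35), nor were *Vim*, *Gli3*, *Sox9* and *Nes*.

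Of the astroglial genes, those called were lower in cycling RGCs. Of 27 tested genes of late RGCs and astrocytes, 7 were called lower and none higher, beside 3.02% lower over all genes. Their median was -0.37 (-0.40 with genes at 0 set to their bound). *Apoe*, a lipid carrier, was at 337 and 367 CPM in cycling and 679 and 711 CPM in non-cycling RGCs (-0.90, SE 0.11, edgeR adjusted p = 1e-13). The glutamate transporter *Slc1a2* was at 69.9 and 69.8 against 128 and 138 CPM (-0.88, SE 0.19, adjusted p = 0.00014). The matrix protein *Sparcl1* was at 50.5 and 57.4 against 126 and 117 CPM (-1.07, SE 0.20), and the chaperone *Clu* at 84.1 and 61.2 against 151 and 120 CPM (-0.78, SE 0.20). All 4 genes were lower in both libraries with no overlap. *Hopx*, at 90.2 and 78.5 CPM in non-cycling RGCs, did not pass the test (0.01, SE 0.25, adjusted p = 1.0).

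Of the neuron and neurogenic genes, those called were lower as well. Of 18 neuron genes 13 were called lower, with a median of -0.73, beside 3.02% lower over all genes. Of 17 neurogenic genes 5 were called lower, with a median of -0.54 (-0.56 with genes at 0 set to their bound). *Myt1l*, a repressor of non-neuronal genes, was at 69.0 and 166 CPM against 336 and 311 CPM (-1.40, SE 0.14, edgeR adjusted p = 1.4e-20). The microtubule protein gene *Dcx* was at 69.9 and 74.6 against 126 and 169 CPM (-1.0, SE 0.18). *Neurod1*, a proneural factor, was at 5.31 and 7.65 against 18 and 33.1 CPM (-2.03, SE 0.45), and *Nhlh1* had 0 UMIs against 7. These counts fell under stricter gates. With an RGC gate of 4 genes, 5 neuron genes and 0 neurogenic genes were called lower and *Neurod1* turned to 1.56, and with a mitochondrial limit of 5%, 5 neuron genes were. With doublets removed 16 were. The neuron list summed to 3591 and 4138 CPM in non-cycling RGCs, and the part of RNA from neurons in these barcodes was not tested.

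By the naming rule, the genes with the largest deficits were of mixed kinds. *Pcp4*, a calmodulin regulator, was at 17.7 and 18.2 CPM against 76.6 and 106 CPM (-2.32, SE 0.26, edgeR adjusted p = 5.7e-17). The cell adhesion gene *Cntn5* was at 35.4 and 12.4 against 160 and 90.9 CPM (-2.25, SE 0.23), and the GABA transporter gene *Slc6a11* at 18.6 and 15.3 against 74.4 and 92.3 CPM (-2.24, SE 0.32). *Grm5*, a glutamate receptor, the long noncoding RNAs *Rmst* and *Meg3*, *Rgs6*, *Lrp1b*, *Cdh8* and *Clybl* lay between -2.17 and -1.70. *Lrp1b* was uneven across the libraries, at 41.6 and 30.6 against 65.4 and 205 CPM.

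**Figure D3:**
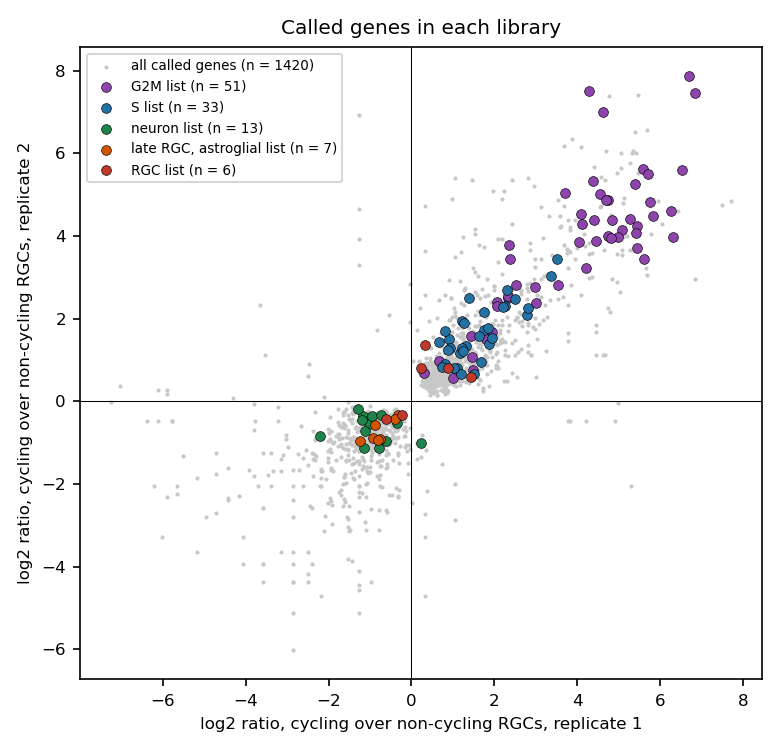
Log2 ratio of cycling over non-cycling RGCs in replicate 1 (x axis) and replicate 2 (y axis) for the 1420 called genes, with called members of 5 lists in colour. G2M genes lie highest in both libraries, the 13 neuron genes and 7 astroglial genes lie mostly below 0 in both, and grey points beside the axes are genes with few UMIs.

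In the signalling lists single members were called, beside 7.80% of all genes, and a count of 0 or 1 in lists of this size is near that background and says nothing of the list. No Notch gene of 21 was called by edgeR, while 2 had an unadjusted p under 0.05 and DESeq2 called 0. *Notch1* was at 149 and 146 CPM against 120 and 139 CPM. *Hes1*, its target, was at 100 and 116 against 76.6 and 79.9 CPM (0.54, SE 0.21, adjusted p = 0.096). Of 24 Wnt genes, *Ctnnb1*, which codes for beta-catenin, was higher (0.41, SE 0.13, adjusted p = 0.019) and 3 genes were lower. *Rspo3*, an enhancer of Wnt signalling, was at 14.2 and 7.65 against 29.3 and 51.0 CPM (-1.89, SE 0.36). *Rspo2*, which also marks the cortical hem, had 0 UMIs against 24, at 2.25 and 31.7 CPM. *Wnt7b* was at 14.2 and 9.56 against 38.3 and 33.1 CPM (-1.49, SE 0.38). The FGF effector *Etv5* was at 84.1 and 81.3 against 42.8 and 45.5 CPM (0.98, SE 0.25) and was the 1 called gene of 13. *Gas1*, at 169 and 157 CPM in non-cycling RGCs, was higher in cycling ones (0.95, SE 0.14), as was *Cdon* (0.36, SE 0.11), another Hedgehog co-receptor. In the Hippo pathway, *Wwtr1* (0.60, SE 0.17) and its partner *Tead1* (0.57, SE 0.15) were higher, and of the BMP genes the targets *Id3* (-0.70, SE 0.18) and *Id2* (-0.54, SE 0.14) were lower. No cilium gene of 18 was called by edgeR, with 3 at an unadjusted p under 0.05 and 0 by DESeq2.

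Of 13 DNA methylation genes 3 were called higher, 0 lower and 10 neither way, with a median of 0.54, and DESeq2 called 2. Over all genes 4.78% were higher and 3.02% lower. *Uhrf1*, which brings DNMT1 to newly copied DNA, was at 77.0 and 74.6 CPM against 20.3 and 26.2 CPM (1.74, SE 0.28, edgeR adjusted p = 4.4e-08). It is also a member of the S phase list. *Dnmt1*, the maintenance methyltransferase that the study centres on, was at 84.1 and 68.8 CPM against 47.3 and 42.7 CPM (0.85, SE 0.23, adjusted p = 0.0066). *Uhrf2* was higher too (0.78, SE 0.18). Of 7 Polycomb genes 4 were higher and 1 lower, beside the same shares over all genes. *Ezh2*, the H3K27 methyltransferase, was at 402 and 292 against 165 and 147 CPM (1.22, SE 0.14, adjusted p = 3.7e-16), followed by *Suz12* (0.95), *Rbbp7* (0.88) and *Rbbp4* (0.71). *Jarid2*, an accessory subunit, was lower, at 73.5 and 83.2 against 135 and 118 CPM (-0.63, SE 0.18).

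Glycolysis, junction and stress lists held calls both ways, beside 7.80% of all genes called. Of glycolysis genes, *Aldoa* (-1.10, SE 0.16) and *Ldhb* (-0.54, SE 0.13) were lower and *Gapdh* (0.32, SE 0.10) was higher, among 16 tested. Of 17 apical junction genes, *Ctnna2* was lower (-0.74, SE 0.10) and *Ctnnb1* higher. Among 12 immediate early and stress genes, *Fos* was at 29.2 and 4.78 against 90.2 and 38.6 CPM (-1.73, SE 0.32), and *Hsp90aa1* was higher (0.67, SE 0.10). *Fosb* was called lower (-1.89, SE 0.56) at 4.43 against 47.3 CPM in replicate 1 and 8.60 against 9.64 CPM in replicate 2, so the call rested on replicate 1. The endothelial genes *Cldn5* and *Flt1* were called higher on 40 and 21 UMIs, most of them from replicate 2. Neither was called once doublets were removed.

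The second comparison sets cycling RGCs against 124 cycling IPCs (48 and 76), which had at least 2 UMIs of *Eomes*, none of the GABAergic genes or *Olig1*, and the same cycle condition. Both groups cycled, so this asks what separates dividing stem cells from dividing committed progenitors. Of 18198 genes, 2252 (12.4%) were called, 1252 higher in cycling RGCs (6.88%) and 1000 lower (5.50%), and the median over all genes was 0.03. *Eomes* and the 7 RGC genes of the rule split the groups, so genes that follow any of them are a description. Doublet scoring marked 22.9 and 22.4% of the IPCs. With doublets removed, 2109 genes were called, 1217 higher and 892 lower. DESeq2 turned the balance, with 852 higher and 904 lower.

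Most tested genes of the RGC and astroglial lists were called higher in cycling RGCs, which the rule chose on genes of this kind. These lists are therefore a description, and a small part of that side, which held 6.88% of all genes. Of 22 RGC genes 14 were higher and 3 lower, with a median of 1.56, and of 27 astroglial genes 17 were higher and 2 lower, with a median of 2.43 (2.45 bounded). *Fabp7* was at 1079 and 1549 CPM in cycling IPCs (2.93, SE 0.10, edgeR adjusted p = 1.3e-187). *Tnc* was at 755 and 736 CPM against 33.1 and 33.0 CPM (4.48, SE 0.17, adjusted p = 2.6e-153). *Hes1*, the Notch effector that holds progenitors back from differentiation, was at 100 and 116 against 6.30 and 6.34 CPM (4.07, SE 0.35). *Pmp22*, best known from myelin, was at 64.6 and 66.0 against 1.57 and 3.81 CPM (4.54, SE 0.48), the largest difference by the naming rule. *Id3*, *Aldh1l1*, *Vit*, *Scrg1*, *Mlc1* and *Ntng1* followed at 3.48 to 4.04. Of these, *Aldh1l1* and *Mlc1* are used as astrocyte genes. Not every pallial factor was higher in RGCs. *Emx1* (-1.0) and *Lhx2* (-0.54) were lower in cycling RGCs, with *Lhx2* visible in the heat map.

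On the IPC side stood the neurogenic genes, 13 of 17 lower in cycling RGCs and none higher, with a median of -3.20 (-3.15 bounded). Over all genes 5.50% were lower. *Neurog2*, a proneural factor, was at 25.7 and 36.3 CPM in cycling RGCs against 288 and 355 CPM (-3.42, SE 0.18, edgeR adjusted p = 6.7e-78). *Neurod1* was at 5.31 and 7.65 against 67.7 and 69.8 CPM (-3.45, SE 0.34). *Neurod4* had 0 UMIs against 29, at least 14.8-fold lower in cycling RGCs. *Sstr2*, a somatostatin receptor, was at 0.885 and 4.78 against 72.4 and 81.2 CPM (-4.82, SE 0.41, adjusted p = 3.1e-30), the largest deficit among genes at 50 CPM or more in both IPC sums. *Rnd2*, which *Neurog2* turns on to set neurons migrating, was at 8.85 and 5.74 against 140 and 161 CPM (-4.39, SE 0.28). *Plcb1* was at 100 and 80.3 against 1214 and 1114 CPM (-3.72, SE 0.13). *Clvs1*, *Chga*, *Btbd17*, *Myt1*, *Cdh8* and *Frrs1l* lay between -4.33 and -3.78. Of 18 neuron genes 11 were lower, *Tbr1* most (-2.42, SE 0.33), and 1, *Gap43*, was higher (0.45).

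Signalling lists held calls in both directions, beside 6.88% higher and 5.50% lower over all genes. Of 21 Notch genes, 7 were higher and 4 lower. The receptors *Notch1*, *Notch2* and *Notch3* were higher by 1.46, 2.82 and 1.78, whereas the ligands *Dll1* and *Dll3* were lower by -2.84 and -2.67, as were *Hes6* (-2.23) and *Mfng* (-3.70, SE 0.31). *Mfng* was at 5.31 and 9.56 against 81.9 and 104 CPM, and its relative *Lfng* went the other way, at 21.2 and 33.5 against 1.57 and 3.81 CPM (3.25, SE 0.70). Both code for sugar transferases that tune Notch. Of 13 FGF genes 9 were higher and none lower, with a median of 1.29 (1.32 bounded). *Fgfbp3*, an FGF carrier, was at 261 and 277 against 14.2 and 33.0 CPM (3.42, SE 0.20), and *Fgfr3* differed by 2.46. Of 10 Hedgehog genes 5 were higher, with a median of 1.32, among them the receptor *Ptch1* (1.68, SE 0.30) and *Gli3* at 661 and 574 against 186 and 194 CPM (1.67, SE 0.12). *Wwtr1* (2.60) and *Yap1* (2.03) of the Hippo pathway were higher, and so was *Ccn1* (2.84), a target of both. Of 24 Wnt genes 8 were higher and 1 was lower. *Wnt7a* was at 25.7 and 32.5 against 1.57 and 6.34 CPM (2.76, SE 0.53, edgeR adjusted p = 4.6e-06), and *Wnt5a* was the lower one (-2.78). Of 17 apical junction genes 7 were higher, among them *Itga6*, a laminin receptor, at 66.4 and 65.0 against 11 and 15.2 CPM (2.28, SE 0.32).

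The difference between the cycle lists was not tested. Of 43 S phase genes 10 were lower in cycling RGCs and none higher, beside 5.50% lower over all genes, with a median of -0.18, and DESeq2 called 5. *Rrm2* was at 397 and 297 CPM in IPCs (-1.32, SE 0.13, edgeR adjusted p = 9.5e-22), and *Prim1*, *Cdc45* and *Tyms* were also lower (-1.05, -0.87 and -0.86). Of 51 G2M genes 2 were higher and 4 lower, and DESeq2 called 4. Over all genes 6.88% were higher and 5.50% lower, so nothing is read from the G2M count. *Cdk6* (-0.88, SE 0.12) and *Cdk4* (-0.72, SE 0.11), which drive cells out of G1, were lower in cycling RGCs, and the repressor *E2f5* was higher, at 135 and 131 against 48.8 and 43.1 CPM (1.52, SE 0.21). *Dnmt1* was lower in cycling RGCs, at 84.1 and 68.8 against 109 and 127 CPM (-0.66, SE 0.18, adjusted p = 0.0030), and turned to 0.28 in thinned cells. *Dnmt3a*, which sets new methyl marks, was higher, at 142 and 93.7 against 53.5 and 31.7 CPM (1.47, SE 0.21), and *Ezh2* was lower (-0.64, SE 0.11).

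Some other members were higher in cycling RGCs on few UMIs. *Foxj1*, of ependymal fate, was at 7.08 and 37.3 CPM against 0, and the meningeal genes *Dcn* and *Col1a1* had 39 and 15 UMIs against 0. Most of these came from replicate 2, which also held more meningeal RNA, and its part was not tested. The immediate early gene *Jun* was at 351 and 274 against 34.6 and 64.7 CPM (2.57, SE 0.17).

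The third comparison sets cycling RGCs against 758 cycling GABAergic cells (262 and 496), which had at least 2 UMIs over *Gad1*, *Gad2*, *Dlx1* and *Dlx2*, none of *Eomes* or *Olig1*, and the same cycle condition. It sets dorsal RGCs against dividing cells chosen on *Gad* and *Dlx* RNA, whose stage the rule did not fix. Differences of region and of stage cannot be told apart here. Of 18198 genes, 4241 (23.3%) were called, 1969 higher in cycling RGCs (10.8%) and 2272 lower (12.5%), and the median over all genes was -0.10. The balance turned with DESeq2, at 1627 higher and 1558 lower, and with only the 2 groups in the fit, at 1987 and 1862. Doublet scoring marked 14.1 and 21.8% of the GABAergic cells. Of 5 erythroid genes 4 were lower in cycling RGCs, of 4 mural genes 3 and of 5 oligodendrocyte precursor genes 2. Of 5 meningeal genes 1 was higher. The part of such RNA was not tested. *Dlx* genes split the groups, so the ventral list is a description. Of its 13 genes 12 were lower, with a median of -4.97 (-3.41 with genes at 0 set to their bound).

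The genes with the largest deficits by the naming rule were near 0 in cycling RGCs, except *Nrxn3*, given below. *St18* had 0 UMIs against 608, at least 78.9-fold lower. *Dlx5* and *Dlx6* had 1 UMI each against 609 and 349, for ratios of 237 (42.4 to 9380) and 136 (24.2 to 5382) towards the GABAergic cells. *Sp9* was at 0.885 and 5.74 against 229 and 158 CPM (-5.90, SE 0.28). *Dlx6os1* (-8.21) and *Dlx1as* (-5.38) are transcribed across *Dlx6* and *Dlx1* from the other strand, and the use of strand in counting is not given in the sources used here. *Adarb2* (-6.34, SE 0.23), a marker of caudal interneurons, and *Slc18a2* (-5.30, SE 0.33) were also among the largest.

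Most RGC and astroglial genes were again called higher, which the rule selects for, beside 10.8% higher over all genes. Of 22 RGC genes 18 were higher and 1 lower, with a median of 1.84, and of 27 astroglial genes 21 were higher and none lower, with a median of 1.69 (1.84 bounded). *Hopx* was at 78.8 and 83.2 CPM against 3.35 and 2.0 CPM (4.96, SE 0.35, edgeR adjusted p = 1.1e-44). *Tfap2c*, a dorsal factor that acts on basal progenitors, was at 65.5 and 76.5 against 2.39 and 3.14 CPM (4.60, SE 0.34). *Dmrta2* (3.70, SE 0.31) and *Fezf2* (3.18, SE 0.29) were higher too, and *Neurog2*, a proneural factor of dorsal cells, was at 25.7 and 36.3 against 1.44 and 4.29 CPM (3.24, SE 0.35). Both were exceptions in their lists, since of 17 neurogenic genes 1 was higher and 10 were lower, and of 18 neuron genes 2 were higher and 12 lower. The metallothionein *Mt3* was at 1649 and 2068 against 148 and 136 CPM (3.69, SE 0.11). *Slco1c1*, a thyroid hormone carrier, was at 165 and 164 against 7.18 and 14.6 CPM (3.82, SE 0.19), with *Col12a1*, *Emid1*, *Lpar1*, *Etl4* and *Clu* between 3.65 and 3.97.

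S phase genes that were called were lower in cycling RGCs, and all but 1 of the called glycolysis genes were higher. Of 43 S phase genes 20 were lower in cycling RGCs and none higher, beside 12.5% lower over all genes, with a median of -0.39, and DESeq2 called 12. *Cdca7* was at 105 and 102 against 360 and 314 CPM (-1.71, SE 0.12) and *Pola1* at 149 and 112 against 342 and 270 CPM (-1.24, SE 0.12). Of 51 G2M genes 7 were higher and 9 lower, with a median of -0.09. Over all genes 10.8% were higher and 12.5% lower, with a median of -0.10, so nothing is read from the G2M count. *Ccnd2* was at 721 and 525 CPM in cycling RGCs against 1666 and 1544 CPM (-1.39, SE 0.10, edgeR adjusted p = 5.7e-45). Of 16 glycolysis genes 11 were higher in cycling RGCs and 1 was lower, with a median of 0.52, beside 10.8% higher over all genes. *Tpi1* was at 229 and 217 against 79.9 and 84.0 CPM (1.43, SE 0.12), *Eno1* at 220 and 183 against 86.1 and 70.9 CPM (1.35, SE 0.13) and *Ldha* at 266 and 263 against 109 and 134 CPM (1.10, SE 0.12). The exception, the phosphofructokinase *Pfkp*, had 4 UMIs in cycling RGCs (-2.98, SE 0.56). Of 13 DNA methylation genes *Dnmt3a* was higher (0.87) and 5 were lower, among them *Tet2* (-1.42, SE 0.20) and *Dnmt1*, at 127 and 108 CPM in the GABAergic cells (-0.63, SE 0.15).

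The signalling lists again held calls in both directions, beside 10.8% higher and 12.5% lower over all genes. Of 10 Hedgehog genes 6 were higher and none lower, with *Gas1* (2.64, SE 0.13), *Boc* (2.36, SE 0.18) and *Cdon* (2.14, SE 0.11) in front, all of them co-receptors. Of 24 Wnt genes 11 were higher and 1 lower. The secreted inhibitor *Sfrp1* was at 350 and 334 against 45.0 and 52.3 CPM (2.77, SE 0.13). Of 13 FGF genes 8 were higher and 1 lower, and of 12 BMP genes 6 were higher and 1 lower. In the Notch list 8 genes were higher and 4 lower the ligands *Dll1* (-2.95) and *Dll3* (-3.25) among the latter.

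**Figure D4:**
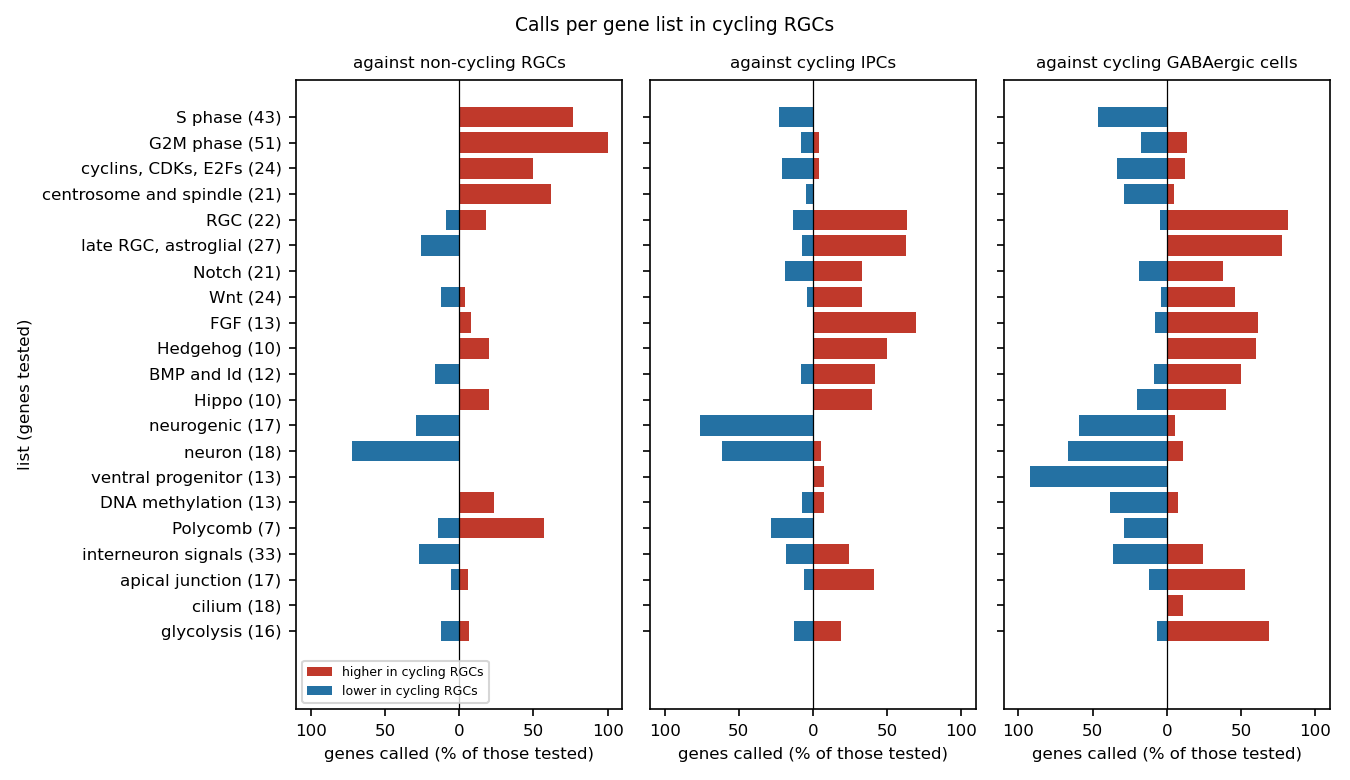
Share of tested genes of each list (number tested in brackets) called higher (red, to the right) or lower (blue, to the left) in cycling RGCs by edgeR at an adjusted p under 0.05, against non-cycling RGCs, cycling IPCs and cycling GABAergic cells. Cycle lists stand out against non-cycling RGCs, and RGC, astroglial, FGF and Hedgehog genes against the other cycling cells. Calls over all genes were 7.80, 12.4 and 23.3%.

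The genes of the signals that the study follows from SST+ cINs are given across all groups. *Nlgn1* (chr3:25421808-26332866), a neuroligin that binds neurexins, was at 699 and 662 CPM in cycling RGCs and at 1127 and 1270 CPM in non-cycling RGCs (-0.75, SE 0.10, edgeR adjusted p = 1.6e-11). It was at 545 and 541 CPM in cycling IPCs, where cycling RGCs stood higher by 0.30 (SE 0.11, adjusted p = 0.036), and at 265 and 311 CPM in cycling GABAergic cells, where they stood higher by 1.22 (SE 0.10, adjusted p = 1.3e-31). *Nlgn1* in cycling RGCs thus lay below the non-cycling RGCs and above both other cycling groups. *Nrxn3* (chr12:88722701-90334935), a neurexin, was at 102 and 134 CPM in cycling RGCs and at 185 and 180 CPM in non-cycling RGCs (-0.57, SE 0.16, adjusted p = 0.0054). In cycling GABAergic cells it was at 8873 and 7336 CPM (-6.12, SE 0.12), and in IPCs at 200 and 152 CPM (-0.60, SE 0.15).

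The ephrin receptor and ligand did not pass the test against any group. The receptor *Epha4* (chr1:77367182-77515107) was at 426 and 350 CPM in cycling RGCs, 356 and 325 CPM in non-cycling RGCs, 405 and 317 CPM in IPCs and 499 and 376 CPM in GABAergic cells. None of the differences passed the test, at 0.24 (SE 0.12, edgeR adjusted p = 0.29), 0.08 (SE 0.12, adjusted p = 0.77) and -0.19 (SE 0.10, adjusted p = 0.20). Its ligand *Efnb2* (chr8:8617235-8661242) was at 114 and 136 CPM and differed by 0.00 (SE 0.17, adjusted p = 1.0), 0.12 (SE 0.16, adjusted p = 0.77) and -0.15 (SE 0.13, adjusted p = 0.47). With 2 libraries, a difference of the size of these SEs was not detectable. Other Eph receptors did differ. *Ephb1* was at 44.3 and 44.0 CPM against 158 and 78.5 CPM in non-cycling RGCs (-1.29, SE 0.21), *Epha7* at 35.4 and 24.9 against 63.1 and 77.2 CPM (-1.18, SE 0.25), and *Epha3* at 113 and 186 CPM against 939 and 723 CPM in IPCs (-2.49, SE 0.12). In all, of 33 tested genes of such signals and their receptors, 9 were lower and none higher against non-cycling RGCs, beside 3.02% lower over all genes, with a median of -0.17 (-0.40 with genes at 0 set to their bound). Against IPCs 8 were higher and 6 lower, beside 6.88 and 5.50% over all genes, and DESeq2 called 9. Against GABAergic cells 8 were higher and 12 lower, beside 10.8 and 12.5%, and DESeq2 called 15.

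The remaining members were uneven or low. The neuregulin receptor *Erbb4* was at 60.2 CPM in replicate 1 and 13.4 CPM in replicate 2 in cycling RGCs, so that its difference from IPCs, at 18.9 and 14.0 CPM (1.17, SE 0.32, edgeR adjusted p = 0.0037), rested on replicate 1 and was -0.14 in replicate 2 alone. In GABAergic cells it was at 1198 and 1046 CPM (-4.93, SE 0.14). *Efna5* was at 91.2 and 69.8 CPM in cycling RGCs and, among these groups, passed the test only against GABAergic cells, at 309 and 281 CPM (-1.89, SE 0.13). *Sstr2* had 6 UMIs in all cycling RGCs. *Gabrb1*, a GABA-A receptor subunit, was at 194 and 89.9 CPM against 7.87 and 33.0 CPM in IPCs (2.66, SE 0.24).

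The fourth comparison looked inside the cycling RGCs. Cells were cut, in each library, at the median ratio of S phase to G2M UMIs, without the genes of the rule, into 50 and 61 S-leaning cells and 52 and 62 G2M-leaning cells. The ratio is a continuum, and 27 and 30 cells lay within 0.5 log2 units of the median, which was -2.39 and -2.55. In G2M UMIs the cells ranged from 12 to 669 around a median of 121.5 in replicate 1 and from 7 to 556 around 92 in replicate 2. Neither list was tested, since both made the cut. Of the other 18104 genes, 555 (3.07%) were called, 347 higher in S-leaning cells (1.92%) and 208 lower (1.15%), and the median over all genes was -0.01.

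Genes that vary with the S phase list were bound to differ, so the genes named here are a description. *Lig1*, the ligase that joins Okazaki fragments, was at 288 and 215 CPM against 35.0 and 48.7 CPM in G2M-leaning cells (2.59, SE 0.22, edgeR adjusted p = 5.5e-29). *Chaf1a*, which loads histones behind the fork, was at 73.2 and 54.7 against 22.1 and 9.36 CPM (2.01, SE 0.39). *Tcf19* was at 54.5 and 50.8 CPM against 3 UMIs in all, a ratio of 18.9 (6.17 to 94.5). *Fam111a*, a protease at the replication clamp, was at 81.7 and 66.4 against 1.84 and 13.1 CPM (3.31, SE 0.43), and *Rmi2*, of the BLM helicase complex, at 56.2 and 50.8 against 9.21 and 7.49 CPM (2.67, SE 0.48). *Csgalnact1*, *Zfp367*, *Kif26b*, *Ranbp17* and *Apba1* lay between 2.20 and 2.39. *E2f1*, the activator of S phase genes, was at 49.4 and 44.9 against 5.53 and 11.2 CPM (2.49, SE 0.47).

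The same holds for genes that vary with the G2M list. *Arl6ip1*, a shaping protein of the endoplasmic reticulum, was at 310 and 330 CPM in S-leaning against 1373 and 1454 CPM in G2M-leaning cells (-2.16, SE 0.12, edgeR adjusted p = 1.4e-62). *Ccnb1* was at 73.2 and 68.4 against 387 and 417 CPM (-2.51, SE 0.18), *Knstrn*, of the kinetochore, at 59.6 and 43.0 against 276 and 228 CPM (-2.30, SE 0.21) and *Aspm* at 63.0 and 58.6 against 225 and 243 CPM (-1.95, SE 0.20). *Tuba1c* (-3.65, SE 0.47) has near-identical tubulin relatives, so its count is uncertain. *Troap* (-3.54, SE 0.54), the phosphatase *Cdkn3* (-2.56, SE 0.35), *Cep89*, *Bora*, which helps to start mitosis, and *Pnrc2* were also lower in S-leaning cells. Of the spindle genes linked to microcephaly, *Nde1* (-1.64, SE 0.21), *Gpsm2* (-1.49, SE 0.29) and *Knl1* (-0.80, SE 0.17) joined *Aspm*. In all, 4 of 21 were called lower and none higher, beside 1.15% lower over all genes.

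**Figure D5:**
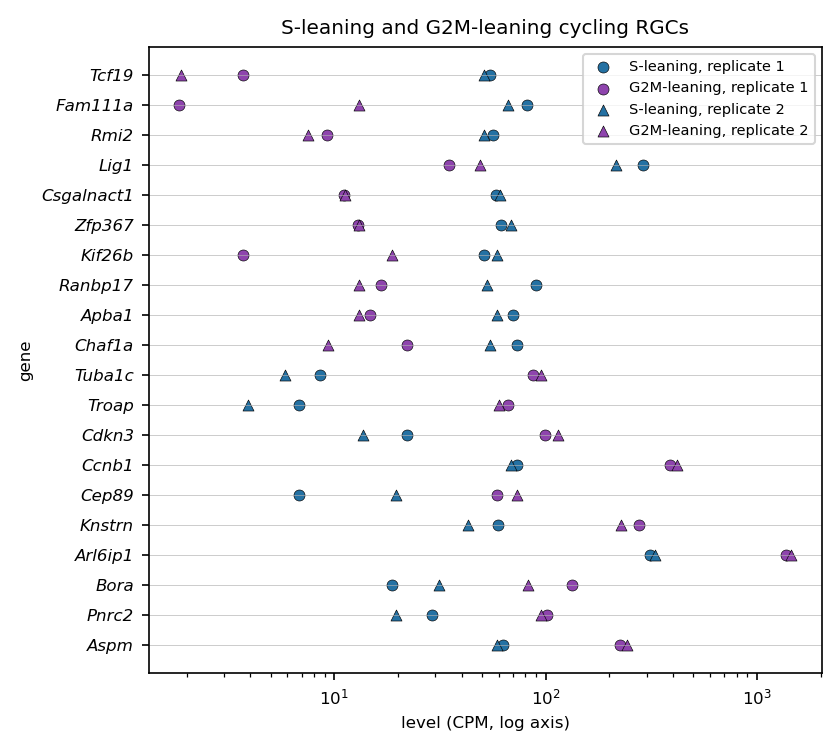
Levels in CPM (log axis) of the 20 genes with the largest differences between S-leaning (blue) and G2M-leaning (purple) cycling RGCs, as circles for replicate 1 and triangles for replicate 2. For each gene the 2 points of one colour lie on the same side of the 2 of the other, as for *Lig1* at 288 and 215 against 35.0 and 48.7 CPM.

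Of 22 RGC identity genes edgeR called 0, with 5 at an unadjusted p under 0.05 and 0 by DESeq2. Their median was -0.07, and 11 were negative and 5 positive in both libraries. With 3.07% of all genes called, a count of 0 in lists of this size is near the background and says nothing of the members. For the same reason nothing is read from the other lists without calls. In these, 0 of 13 FGF genes (1 at an unadjusted p under 0.05), 0 of 10 Hedgehog genes (0), 0 of 12 BMP genes (2), 0 of 10 Hippo genes (1) and 0 of 16 glycolysis genes (1) were called by edgeR, and none by DESeq2. A few astroglial genes did differ. The gap junction gene *Gja1* was at 6.81 and 13.7 CPM in S-leaning against 38.7 and 50.5 CPM in G2M-leaning cells (-2.16, SE 0.47, adjusted p = 0.00037). *Slc1a2* was at 93.7 and 93.8 against 44.2 and 46.8 CPM (1.03, SE 0.27) and *Apoe* at 381 and 459 against 289 and 279 CPM (0.54, SE 0.14). *Dnmt1* was at 121 and 86.0 CPM in S-leaning and 44.2 and 52.4 CPM in G2M-leaning cells (1.10, SE 0.25, adjusted p = 0.0012), and *Jarid2* was at 35.8 and 52.7 against 114 and 112 CPM (-1.39, SE 0.25).

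Of 17 neurogenic genes 3 were called lower in S-leaning cells and 14 neither way, beside 1.15% lower over all genes. The antiproliferative gene *Btg2*, which marks neurogenic divisions, was at 15.3 and 25.4 CPM in S-leaning against 68.2 and 35.6 CPM in G2M-leaning cells (-1.39, SE 0.37, edgeR adjusted p = 0.0076). *Gadd45g* (-1.04, SE 0.31) was lower too. *Gadd45g* was so in replicate 1 alone, with 0.09 in replicate 2, and 1 of the 3 calls was left with DESeq2 and with doublets removed. The CDK inhibitor *Cdkn1c* was at 13.6 and 41.0 against 25.8 and 146 CPM (-1.69, SE 0.30), and turned to 1.24 with a mitochondrial limit of 5%. Among signal genes *Efna5* (0.94, SE 0.24) and *Nrxn3* (0.76, SE 0.20) were higher in S-leaning cells, where the neuron list summed to 2473 and 2796 CPM against 1270 and 2718 CPM, and its part was not tested. *Epha4*, *Efnb2* and *Nlgn1* were not called (adjusted p = 1.0, 0.27 and 0.38). The call of *Erbb4* had opposite directions, at 111 against 5.53 CPM in replicate 1 and 5.86 against 20.6 CPM in replicate 2. In replicate 2 endothelial RNA summed to 17.6 CPM in S-leaning and 124 CPM in G2M-leaning cells and meningeal RNA to 39.1 and 101 CPM, and their part in these differences was not tested. Of *Fzd7*, a Wnt receptor, all 17 UMIs were in G2M-leaning cells.

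Within the cycling RGCs, thinned to 1500 UMIs each, single genes varied by very different amounts. Among 9890 genes ranked by the lower of the 2 libraries' variance-to-mean ratios, the median was 0.97, near that of random draws. *Fabp7* had the highest ratio, 14.4 and 13.3. Its cells had a median of 12 and 11 UMIs, but ranged from 0 to 73 in replicate 1 and from 0 to 95 in replicate 2. The nuclear noncoding RNA *Malat1* followed with 8.24 and 10.5, over 0 to 72 and 0 to 67 UMIs. *Nrg1*, a ligand of ERBB receptors, had 3.86 and 3.25 around a median of 4 and 3 UMIs, and *Csmd1* 3.5 and 3.96. *Tenm2* (7.0 and 3.59), *Luzp2* (3.88 and 3.59), *Ccser1* (3.15 and 3.18), *Rbfox1* (3.13 and 4.51) and *Dcc* (3.05 and 3.16) were each present in a minority of cells, such as *Tenm2* in 13 and 16 cells. *Gm29585* reached its ratio through 1 and 3 cells. S-leaning cells had a median of 12 and 14 *Fabp7* UMIs and G2M-leaning cells of 10.5 and 9.5, with ranges that overlapped widely in both libraries.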

How the data were processed

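Single cells of E16.5 mouse cortex from 2 WT libraries were profiled. The authors deposited a filtered matrix of UMI counts per gene and barcode for each library, of 9049 and 13556 barcodes and 46398156 and 64324236 UMIs. Cell Ranger made them on build mm10, version 7.1.0 per the file headers and 7.0.0 in the submitters' processing notes. No deposited cell annotation was used, so the groups are rebuilt from marker genes.

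Barcodes were gated as the report gives. Doublets were scored with Scrublet in scanpy 1.11.5 at 0.8% per 1000 barcodes and kept in the main values. Counts were summed per library and group (at least 20 cells) and fitted in 1 model over all groups with library as covariate, TMM scaling, and edgeR 4.0.16's quasi-likelihood test in R 4.3.3, for genes with 10 counts in 2 sums, with Benjamini-Hochberg adjustment over all genes tested. Genes of the gate (16 of 32285) were not tested. CPM are UMI counts of a sum divided by its total, on the usual scale. Shares have Wilson 95% intervals, and ratios over 1 to 3 UMIs have exact counting intervals. These cover counting error only. Both libraries are separate samples by their labels, and p-values measure only the spread between them, which may be technical. The sums of cells within a library are not independent of each other.

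Named genes were, for each comparison and direction, the 10 called genes with the largest log2 difference at 50 CPM or more in both libraries of the higher group and the same direction in both, outside the cycle lists, and up to 4 called members of each list. Others were shown after their values were seen, as list members, for their level. These are, against non-cycling RGCs, *Fabp7*, *Vim*, *Hes1*, *Notch1*, *Hopx*, *Hmgb2*, *Pcna* and the like, and the signal genes of the study were always given. The members and lists were chosen with earlier results of these data known. Scripts were tested on simulated data. Some named genes are not reported here. DESeq2 1.42.0, its size factors, no filter, no library term, a fit of 2 groups, thinned cells, other gates and doublet removal were alternatives, and a depth window of 4000 to 20000 UMIs and removal of cells with vascular, meningeal or microglial UMIs were added after seeing the data.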

Additional observations from a re-analysis of the deposited data

How the results depend on the processing

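Fold changes of named genes were recomputed under each alternative. Under alternatives with a test, 941 of 1085 values for 84 genes against non-cycling RGCs kept direction and side of the threshold and 12 turned, against IPCs 951 of 1063 and 1 turned, against GABAergic cells 1118 of 1166 and 0 turned, and between S-leaning and G2M-leaning cells 403 of 544 and 11 turned. In single libraries, which have no test, 0 of 168, 1 of 178, 0 of 196 and 3 of 110 values turned, in the same order. A further 41, 32, 27 and 18 were counted as moved in size without turning, and 127, 145, 169 and 89 as the same. Depth limited the calls most. In cells thinned to 1500 UMIs, 275 genes were called against non-cycling RGCs (203 higher, 72 lower), 446 against IPCs (246 and 200), 1437 against GABAergic cells (611 and 826) and 25 between the phases (13 and 12), with fewer counts by construction. DESeq2 called 576 higher genes against non-cycling RGCs and 216 higher in S-leaning cells. The cell groups are paired within each library through the library term of the fit. Without it, 323 were lower against non-cycling RGCs, and 306 differed between the phases (187 and 119). With only the 2 groups in the fit, 291 did (189 and 102). A mitochondrial limit of 5% left 338 lower genes against non-cycling RGCs and raised the share of cycling RGCs in replicate 1 to 2.36%. DESeq2 size factors moved the split against non-cycling RGCs from 61.3% to 51.6% higher (740 and 694). The causes were not tested. Calls without 1 library could not be counted, since no residual degrees of freedom are left, so each gene's ratio in the other library was used.

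Against non-cycling RGCs these log2 values turned. *Neurod1* was 1.56 with an RGC gate of 4 genes. *Flt1* was -0.01 with doublets removed, -0.67 with non-cycling cells of 0 or 1 cycle UMI and -0.13 at 4000 to 20000 UMIs, and *Cldn5* was -1.20 with 0 or 1 cycle UMI. *Efnb2*, near 0 throughout, was -0.05 with DESeq2, -0.06 with its size factors, -0.02 with only 2 groups, -0.07 with doublets removed, -0.02 with a cycle gate of 3 UMIs and -0.01 without cells holding vascular, meningeal or microglial UMIs. *Wnt7a* was -0.50 in thinned cells. Against IPCs, *Dnmt1* was 0.28 in thinned cells and *Erbb4* ranged from -0.14 to 1.64 without replicate 1 or 2. Between S-leaning and G2M-leaning cells, *Cdkn1c* was 1.24 and *Dcn* 2.02 with a mitochondrial limit of 5%. Without replicate 1 or 2, *Gadd45g* ranged from -2.13 to 0.09, *Erbb4* from -1.69 to 4.11 and *Cldn5* from -2.20 to 1.11. *Cldn5* was 0.53 without marker-positive cells. *Rbfox1* was -0.58 and *Flt1* 0.95 with doublets removed, and *Flt1* was 0.93 in the depth window. *Epha4* was 0.18 in that window and 0.04 without marker-positive cells. *Dnmt3a* was -0.10, *Efnb2* -0.29 and *Wnt7a* -0.53 in thinned cells.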
